A study of Mus musculus with 8 samples.

Results

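The 33 genes described here encode the enzymes of cholesterol and fatty acid synthesis, and the proteins of the SREBP pathway that controls them, in cultured mouse hippocampal neurons with and without knockdown of the deadenylase CNOT7. They were chosen by name, with earlier results of these data known. All 33 were found among the 23845 genes of the deposited expression table. By role, 18 are steps of cholesterol synthesis, 5 are SREBP regulators (Srebf1, Srebf2, Scap, Insig1 and Insig2), 8 are fatty acid enzymes, and 2 are other SREBP targets (Stard4 and Lpin1). All 33 averaged 1 TPM or more over the 8 libraries and so passed the filter on low values.

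Neurons came, per the labels, from mouse hippocampi at embryonic day 19. Lentivirus was added between days 13 and 15 of culture, and cells were collected between days 17 and 19. Knockdown neurons received a short hairpin against CNOT7, and scrambled neurons received lentivirus with a scrambled hairpin. From each, poly(A) RNA bound to poly(U) agarose was eluted at 75 °C, either after a wash at 50 °C that the labels say takes away tails under 50 nucleotides (the long-tail fraction) or without that wash (total RNA). The 4 groups were knockdown long-tail, scrambled long-tail, knockdown total and scrambled total, with 2 libraries each. Separate cultures are not stated for the libraries within a group, so p-values reflect the spread between these samples and no more. The question put to the data is how the mRNAs of lipid synthesis differed after CNOT7 knockdown, and how they were shared between the long-tail fraction and total RNA.

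Cholesterol synthesis starts from acetyl-CoA and runs through mevalonate and the isoprenoid diphosphates to squalene, then to lanosterol, and finally through a series of demethylations, reductions and isomerisations to cholesterol. Its enzymes are controlled together. When membrane sterol is low, the escort protein SCAP carries the SREBP transcription factors from the endoplasmic reticulum to the Golgi, where they are cut and released to the nucleus, and INSIG proteins hold the complex back when sterol is plentiful. SREBP-2, the product of Srebf2, acts mainly on cholesterol genes and SREBP-1c, a product of Srebf1, mainly on fatty acid genes. In the brain cholesterol is made locally, by glia and by neurons, since plasma lipoproteins do not cross the blood-brain barrier. CNOT7 is a catalytic subunit of the CCR4-NOT complex, which shortens poly(A) tails.

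Levels are in TPM, a length-corrected share of all transcripts of a library, which the authors rounded to whole numbers. Levels of different genes can therefore be compared on this scale. A long-tail value above or below a total value is a difference in shares and says nothing of tail length or of amounts. In RNA of a mixed culture, fewer cells of a type and less RNA per cell cannot be told apart. Differences are on the log2(TPM + 1) scale, from a limma model over the 13681 genes that averaged 1 TPM or more, with Benjamini-Hochberg adjustment over those genes. An exact permutation test of 2 libraries against 2 has 0.333 as its smallest p. In all 5 comparisons no gene of the 13681, and so no member, had an adjusted p under 0.05.

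The knockdown and the libraries were checked first. Cnot7 had 9 and 11 TPM in knockdown long-tail libraries, against 28 and 31 TPM in scrambled long-tail libraries. In total RNA it had 12 and 16 TPM in knockdown libraries, against 42 and 36 TPM in scrambled libraries. The groups did not overlap, and the authors' deposited tables list Cnot7 as lower in knockdown in long-tail RNA (adjusted p = 1.02e-05) and in total RNA (adjusted p = 3.96e-05). Each library summed to between 999689 and 999809 TPM, and the read depth is unknown. Knockdown long-tail library 2 stood apart on the first principal component, at 56.6 against -30.2 to 15.8 for the other 7. The ribosomal RNA precursor Rn45s took 2.9% of TPM in that library and up to 18.6% in the others. Neuronal markers summed to 5119 to 7265 TPM and astrocyte markers to 4295 to 7521 TPM, while microglial markers reached at most 17 TPM, with Aif1, Cx3cr1 and Itgam at 0 in every library. RNA of the labelled neurons thus also held markers of astrocytes.

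Promoters of 4 members that stood higher after knockdown, chosen for the motifs they hold, are shown before their values, because SREBP-2 is known to act on sterol genes through sterol regulatory elements together with NF-Y at CCAAT boxes. Promoter sequence was taken from RefSeq (build GRCm38.p6, 250 bases before to 50 bases after a start) and was matched for 26 of the 33 members. Fdps, Fdft1, Sqle, Stard4, Scd1, Scd2 and Fads1 had no matched promoter. Hmgcs1, which encodes the cytosolic HMG-CoA synthase, was the 1 member of 26 with the sterol-element-like run TCACNCCAC on either strand, a run found in 1.42% of the 10276 tested genes with a promoter. In the 250 bases before its start, at chr13:119690101-119690350 on the plus strand of GRCm38.p6, capitals mark that run and the CCAAT boxes, which read ATTGG where they lie on the opposite strand.
Hmgcs1: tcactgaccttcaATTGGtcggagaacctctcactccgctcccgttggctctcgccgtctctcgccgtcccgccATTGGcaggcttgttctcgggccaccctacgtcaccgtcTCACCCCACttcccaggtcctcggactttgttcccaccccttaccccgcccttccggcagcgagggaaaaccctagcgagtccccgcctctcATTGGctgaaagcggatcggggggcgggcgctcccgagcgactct

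The shorter run CACNCCAC, which is contained in the first, was present in 3 of 26 members (Hmgcs1, Acat2 and Insig1), against 7.59% of the tested genes. Acat2, the cytosolic thiolase that condenses acetyl-CoA ahead of HMG-CoA synthase, held it in both orientations, in windows at chr17:12960874-12960931 (upstream) and chr17:12960746-12960803 (near the start), minus strand of GRCm38.p6. Insig1, which also held the run, differed by 0.06 in long-tail RNA and 0.18 in total RNA, with overlap in both. Presence of the run was not tested against the differences. Capitals mark the run in the Acat2 windows.
Acat2 upstream: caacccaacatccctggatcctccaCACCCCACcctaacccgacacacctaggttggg
Acat2 near the start: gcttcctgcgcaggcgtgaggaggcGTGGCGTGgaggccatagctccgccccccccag

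CCAAT on either strand was the more frequent run, in 20 of 26 members (76.9%) against 43.4% of the tested genes. It was present in 14 of the 15 cholesterol steps with a promoter, in 4 of the 5 regulators and in 2 of the 5 fatty acid enzymes. Mvd, the mevalonate diphosphate decarboxylase, and Mvk, the mevalonate kinase, are shown as members that stood higher and held several copies. Several copies were also present in members that did not stand higher. Among these were Ggps1 (knockdown difference -0.49 in long-tail RNA and -0.33 in total RNA) and Hsd17b7 (0.01 in each). The number of copies was not tested against the differences. Mvd carried 2 CCAAT boxes and Mvk 5, and capitals mark those in windows at chr8:122443423-122443474 on the minus strand and chr5:114444194-114444248 on the plus strand of GRCm38.p6.
Mvd: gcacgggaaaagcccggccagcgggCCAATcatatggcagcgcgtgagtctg
Mvk: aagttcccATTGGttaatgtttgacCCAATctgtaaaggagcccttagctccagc

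The GC box GGGCGG, searched on both strands, was found in 20 of 26 members (76.9%) and in 69.7% of the tested genes. A match to these letters is a description of the window and was not tested as a bound site.

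The genes of cholesterol synthesis were, on the whole, higher in knockdown neurons than in scrambled neurons, in the long-tail fraction and in total RNA. In long-tail RNA 15 of 18 steps had a positive knockdown difference, with a median of 0.32 on the log2 scale. In total RNA 15 of 18 were positive too, with a median of 0.30. Over all tested genes the share above 0 was 32% in long-tail RNA and 32.6% in total RNA, with medians of -0.10 and -0.07. The regulators and the fatty acid enzymes lay nearer to all genes, with medians of -0.06 and -0.15 in long-tail RNA and of -0.02 and 0.04 in total RNA. No member passed the adjusted threshold, so these are counts and medians and not calls.

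The TPM of the 18 steps summed to 1938 and 1856 in knockdown long-tail libraries, against 1518 and 1424 in scrambled long-tail libraries. In total RNA the sums were 2555 and 1928 in knockdown libraries, against 1877 and 1506 in scrambled libraries. In both fractions the lower knockdown library was above the higher scrambled one, by a wide margin in long-tail RNA and by a narrow one in total RNA. Hmgcs1 was the highest of the steps, with 665 and 643 TPM in knockdown total libraries, against 424 and 408 TPM in scrambled total libraries. Its gap was wider than that between the sums, so in total RNA the sums of the other steps overlapped. The 5 regulators summed to 417 and 339 TPM in knockdown long-tail libraries, against 390 and 378 TPM in scrambled long-tail libraries, and overlapped. They summed to 514 and 434 TPM in knockdown total libraries, against 526 and 429 TPM in scrambled total libraries, and overlapped there as well. The fatty acid enzymes summed to 2622 and 2027 TPM in knockdown long-tail libraries, against 2385 and 2567 TPM in scrambled long-tail libraries. In total RNA they summed to 3569 and 3145 TPM in knockdown libraries, against 3786 and 3388 TPM in scrambled libraries, again with overlap.

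**Figure D1:**
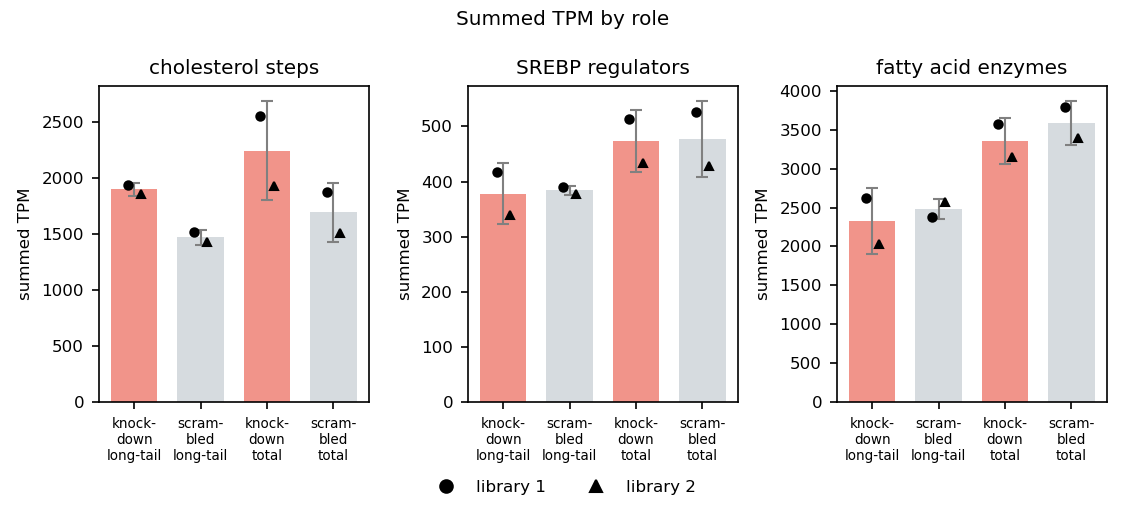
Summed TPM of the 18 cholesterol steps, 5 SREBP regulators and 8 fatty acid enzymes in each group; bars are means of 2 libraries, lines are ± SD and points are single libraries. The cholesterol steps stood at 1938 and 1856 in knockdown long-tail libraries and 1518 and 1424 in scrambled long-tail libraries, while the other sums overlapped between knockdown and scrambled in both fractions.

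The agreement between libraries differed between the fractions. In long-tail RNA 11 of the 18 steps were higher in both knockdown libraries than in both scrambled libraries, against 8.91% of all tested genes. Ggps1 alone among them was lower without overlap, as were 17.1% of all tested genes. In total RNA 2 steps, Hmgcs1 and Acat2, were higher without overlap (8.68% of all tested genes), and Ggps1 was lower (20.1%). Taking 1 knockdown library at a time in total RNA, 16 of 18 steps in library 1 were above both scrambled libraries, against 23.2% of all tested genes. In library 2 that held for 2 of 18, against 16.1%. Without knockdown total library 1 the median of the steps in total RNA was -0.02, and without scrambled total library 2 it was 0.05. Leaving out 1 library also leaves the library numbers uneven between the groups. Between total libraries of the same number, knockdown was above scrambled for 16 of 18 steps in number 1 and 14 of 18 in number 2, against 34.9% and 26% of all tested genes. In long-tail RNA each knockdown library alone was above both scrambled libraries for 13 of 18 steps, against 19% and 27.1% of all tested genes in libraries 1 and 2.

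Library number moved with these genes. All 18 cholesterol steps were higher in library 1 than in library 2 of scrambled total RNA, as were 42% of tested genes, and 17 of 18 in knockdown total RNA, against 52.5%. In long-tail RNA the counts were 13 of 18 in knockdown libraries, against 39.3% of tested genes, and 11 of 18 in scrambled libraries, against 21.7%. What the number stands for is not given in the labels, and its part in the differences was not tested.

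**Figure D2:**
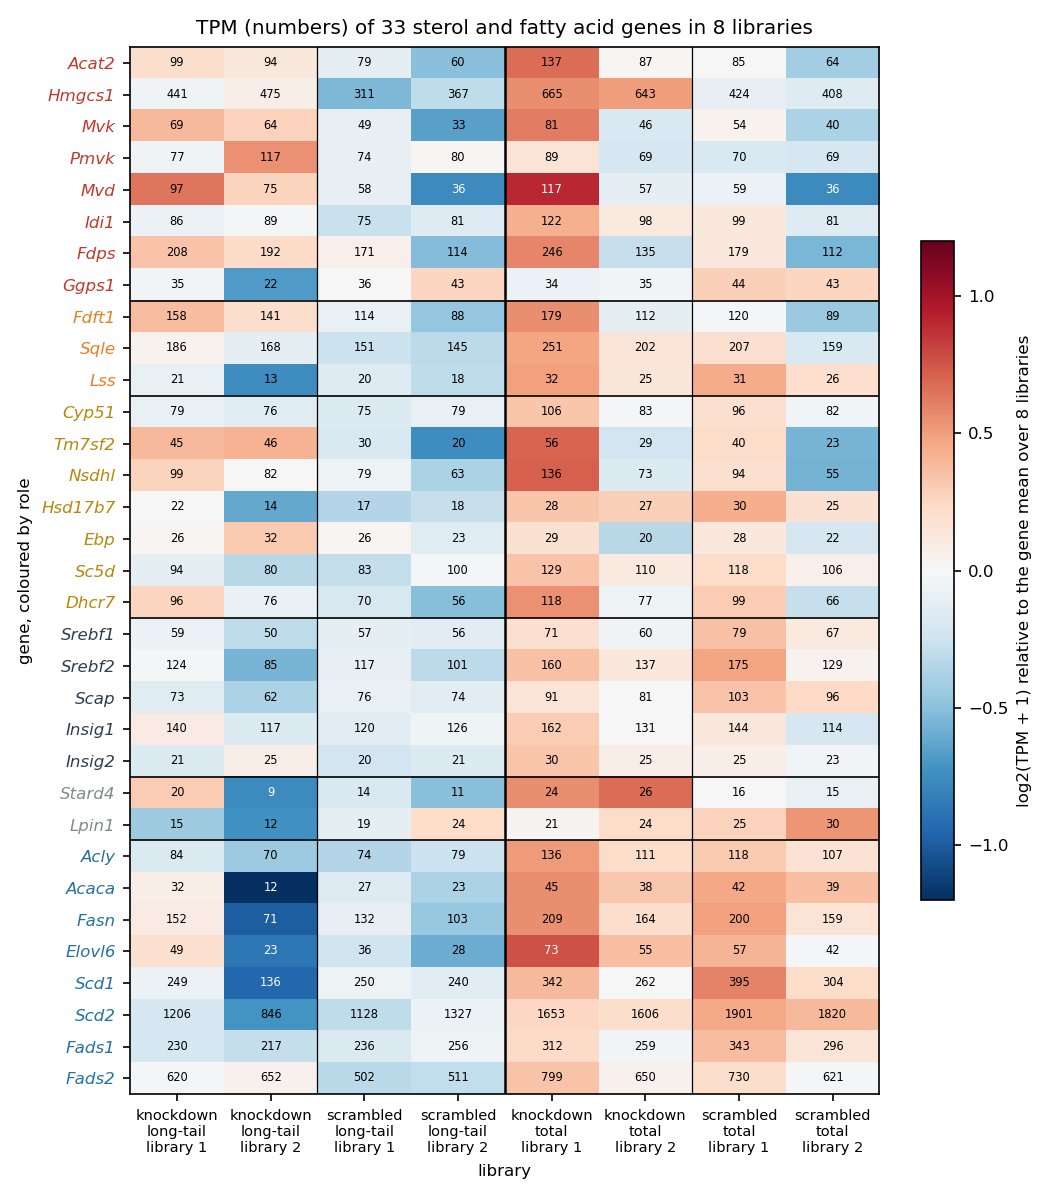
TPM of the 33 genes (numbers) in the 8 libraries, coloured by log2(TPM + 1) relative to the mean of the gene, with gene names coloured by role and lines between roles. Hmgcs1 reached 441 and 475 in knockdown long-tail libraries and 311 and 367 in scrambled long-tail libraries, and most cholesterol steps were redder in library 1 than in library 2 of total RNA.

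Hmgcs1 (chr13:119690379-119708260, plus strand of mm10) was the most clearly separated member. It had 441 and 475 TPM in knockdown long-tail libraries, against 311 and 367 TPM in scrambled long-tail libraries. In total RNA it had 665 and 643 TPM in knockdown libraries, against 424 and 408 TPM in scrambled libraries. All knockdown values were above all scrambled values of the same fraction. The difference was 0.44 ± 0.12 (SE) in long-tail RNA (limma adjusted p = 0.502, unadjusted p = 0.0139) and 0.65 ± 0.12 in total RNA (limma adjusted p = 0.354, unadjusted p = 0.00233). It ranked 90 of 13681 by p in total RNA. The authors' deposited table for total RNA lists Hmgcs1 as risen in knockdown, by 0.68 on the log2 scale with an adjusted p of 0.00123, and it was the 1 member in that table, which holds 0.526% of the tested genes as higher. No member is in the authors' deposited table for long-tail RNA, which holds 0.46% of the tested genes as higher and 0.249% as lower. An antisense gene, Gm48342, shares 557 of the 3482 exon bases of Hmgcs1, and the sources used here do not say whether reads were assigned by strand.

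Of the members, 1 had an unadjusted p under 0.05 and was higher in long-tail RNA (Hmgcs1; 2.25% of all tested genes), and 1 was lower (Lpin1; 6.47%). In total RNA 1 was higher (Hmgcs1; 2.05%) and 0 were lower (4.3%). Over the 33 members 12 were higher without overlap in long-tail RNA (8.91% of all tested genes) and 3 in total RNA (8.68%), the second of these near the share of all genes. In each fraction 4 were lower without overlap, against 17.1% of all tested genes in long-tail RNA and 20.1% in total RNA.

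The other early steps, from acetyl-CoA to the isoprenoid diphosphates, mostly stood higher after knockdown. Acat2 had 99 and 94 TPM in knockdown long-tail libraries, against 79 and 60 TPM in scrambled long-tail libraries, a difference of 0.48 without overlap. Its total-RNA values were 137 and 87 TPM in knockdown libraries, against 85 and 64 TPM in scrambled libraries (0.56 ± 0.27 SE, limma adjusted p = 0.88). In total RNA it did not overlap, but knockdown library 2 exceeded scrambled library 1 by only a few TPM.

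Mvk, which phosphorylates mevalonate, had 69 and 64 TPM in knockdown long-tail libraries, against 49 and 33 TPM in scrambled long-tail libraries (0.71 ± 0.33 SE, limma adjusted p = 0.608). Mvk had 81 and 46 TPM in knockdown total libraries, against 54 and 40 TPM in scrambled total libraries (0.39). It was separated in long-tail RNA only, since in total RNA knockdown library 2 lay between the scrambled libraries. Pmvk, which adds the second phosphate, had 77 and 117 TPM in knockdown long-tail libraries, against 74 and 80 TPM in scrambled long-tail libraries, and overlapped. Its total-RNA values of 89 and 69 TPM in knockdown libraries met the 70 and 69 TPM of scrambled libraries.

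Mvd had the largest knockdown difference of the 33 genes in both fractions, with wide spread. It had 97 and 75 TPM in knockdown long-tail libraries, against 58 and 36 TPM in scrambled long-tail libraries (0.89 ± 0.44 SE, limma adjusted p = 0.622). In total RNA it had 117 and 57 TPM in knockdown libraries, against 59 and 36 TPM in scrambled libraries (0.81 ± 0.44 SE, limma adjusted p = 0.924). Knockdown total library 2 was just below scrambled total library 1, so that the groups overlapped in total RNA but not in long-tail RNA.

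Idi1, the isomerase that makes dimethylallyl diphosphate, had 86 and 89 TPM in knockdown long-tail libraries, against 75 and 81 TPM in scrambled long-tail libraries (0.16). In total RNA Idi1 had 122 and 98 TPM in knockdown libraries, against 99 and 81 TPM in scrambled libraries (0.29). It did not overlap in long-tail RNA and missed that by 1 TPM in total RNA. Fdps, the farnesyl diphosphate synthase, had 208 and 192 TPM in knockdown long-tail libraries, against 171 and 114 TPM in scrambled long-tail libraries (0.51). Fdps had 246 and 135 TPM in knockdown total libraries, against 179 and 112 TPM in scrambled total libraries (0.36), with overlap. A gene model on the same strand, Gm43738, shares 1124 of the 1453 exon bases of Fdps, so its reads could be divided.

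Ggps1, which makes geranylgeranyl diphosphate at the branch that leads away from sterols to protein prenylation, went the other way. It had 35 and 22 TPM in knockdown long-tail libraries, against 36 and 43 TPM in scrambled long-tail libraries (-0.49, limma adjusted p = 0.605). Its values in total RNA were 34 and 35 TPM in knockdown libraries, against 44 and 43 TPM in scrambled libraries (-0.33). Knockdown was below scrambled without overlap in both fractions.

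The steps from farnesyl diphosphate to lanosterol were higher for the first pair of enzymes and not for the last. Fdft1, the squalene synthase that commits the pathway to sterols, had 158 and 141 TPM in knockdown long-tail libraries, against 114 and 88 TPM in scrambled long-tail libraries (0.57 ± 0.28 SE, limma adjusted p = 0.619). Fdft1 had 179 and 112 TPM in knockdown total libraries, against 120 and 89 TPM in scrambled total libraries (0.45), with overlap. It shares 774 exon bases with Ctsb on the opposite strand.

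Sqle, the squalene epoxidase, had 186 and 168 TPM in knockdown long-tail libraries, against 151 and 145 TPM in scrambled long-tail libraries (0.26), without overlap. Sqle had 251 and 202 TPM in knockdown total libraries, against 207 and 159 TPM in scrambled total libraries (0.31), with overlap. Lss, which closes the ring to lanosterol, had 21 and 13 TPM in knockdown long-tail libraries, against 20 and 18 TPM in scrambled long-tail libraries (-0.19). In total RNA Lss was level, with 32 and 25 TPM in knockdown libraries, against 31 and 26 TPM in scrambled libraries (-0.01).

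After lanosterol the 7 enzymes had a median difference of 0.23 in long-tail RNA and 0.09 in total RNA, against 0.46 and 0.37 for the 8 early steps. Tm7sf2, a sterol C14 reductase, stood out in long-tail RNA with 45 and 46 TPM in knockdown libraries, against 30 and 20 TPM in scrambled libraries (0.87 ± 0.41 SE, limma adjusted p = 0.61). Tm7sf2 in total RNA had 56 and 29 TPM in knockdown libraries, against 40 and 23 TPM in scrambled libraries (0.40), with overlap. Nsdhl, which takes part in removing the C4 methyl groups, had 99 and 82 TPM in knockdown long-tail libraries, against 79 and 63 TPM in scrambled long-tail libraries (0.35). The separation in Nsdhl was narrow.

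Dhcr7, which makes the final reduction from 7-dehydrocholesterol, had 96 and 76 TPM in knockdown long-tail libraries, against 70 and 56 TPM in scrambled long-tail libraries (0.44), without overlap. In total RNA both overlapped. Nsdhl had 136 and 73 TPM in knockdown total libraries, against 94 and 55 TPM in scrambled total libraries (0.47). Dhcr7 had 118 and 77 TPM in knockdown total libraries, against 99 and 66 TPM in scrambled total libraries (0.24). Cyp51, the lanosterol demethylase, Hsd17b7, the C4 ketone reductase, and Sc5d, the C5 desaturase, stayed within 0.1 of 0 in both fractions. Ebp, the sterol isomerase, differed by 0.23 in long-tail RNA and by -0.04 in total RNA, with overlap in both.

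**Figure D3:**
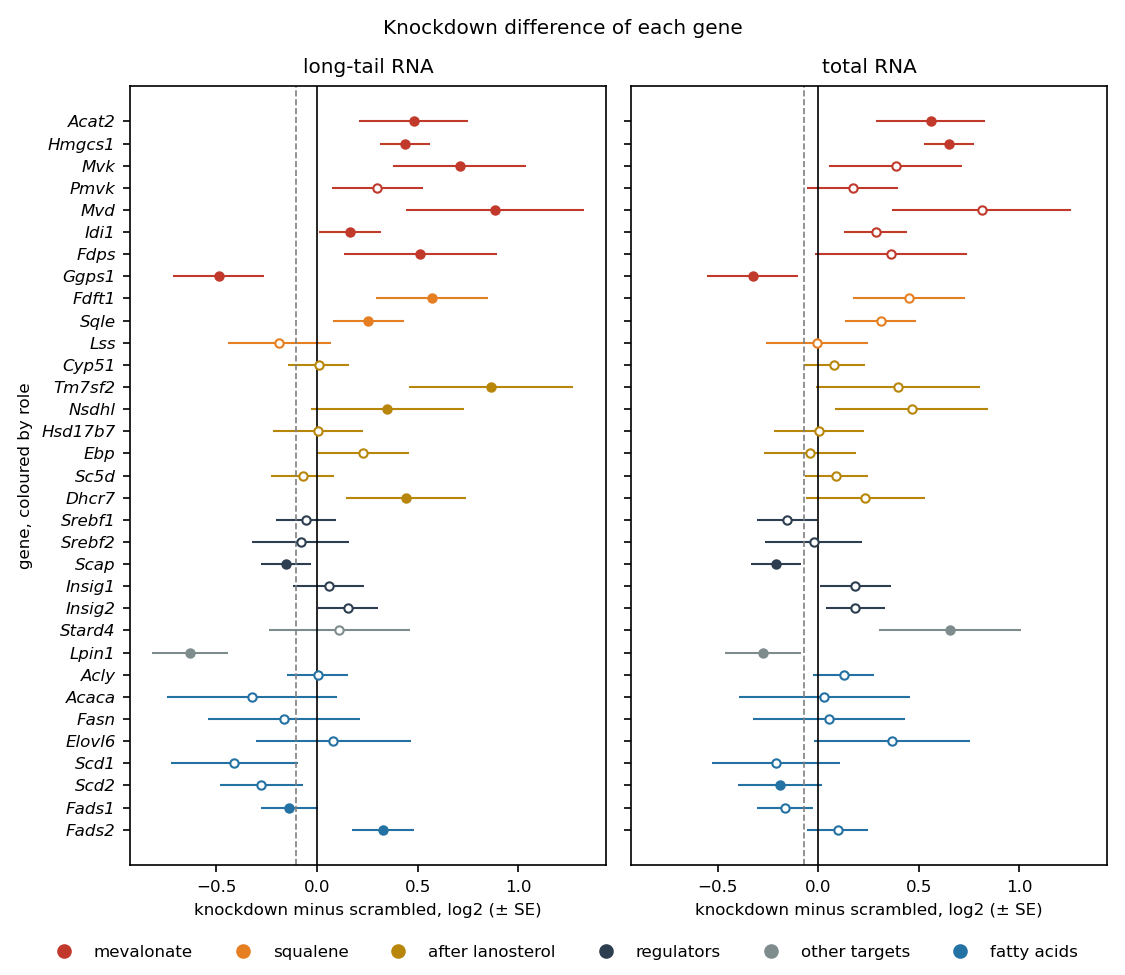
Knockdown minus scrambled difference (log2 scale, ± SE from limma) of each of the 33 genes in long-tail RNA (left) and total RNA (right), coloured by role; filled points are genes whose 2 knockdown libraries do not overlap the 2 scrambled libraries, and the dashed line is the median of all tested genes (-0.10 and -0.07). Among the 18 cholesterol steps 15 lie right of 0 in each panel, with 11 filled there in long-tail RNA and 2 in total RNA.

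The SREBP regulators lay near 0, with 2 of 5 above it and 3 below it in each fraction. Srebf2 had 124 and 85 TPM in knockdown long-tail libraries, against 117 and 101 TPM in scrambled long-tail libraries (-0.08). In total RNA Srebf2 had 160 and 137 TPM in knockdown libraries, against 175 and 129 TPM in scrambled libraries (-0.02). Srebf1 had 59 and 50 TPM in knockdown long-tail libraries, against 57 and 56 TPM in scrambled long-tail libraries (-0.06). The mRNAs of both transcription factors overlapped between knockdown and scrambled libraries in long-tail RNA. Srebf1 in total RNA had 71 and 60 TPM in knockdown libraries, against 79 and 67 TPM in scrambled libraries (-0.15), with overlap.

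Scap was the 1 regulator separated in both fractions. It had 73 and 62 TPM in knockdown long-tail libraries, against 76 and 74 TPM in scrambled long-tail libraries (-0.15). In total RNA it had 91 and 81 TPM in knockdown libraries, against 103 and 96 TPM in scrambled libraries (-0.21 ± 0.12 SE, limma adjusted p = 0.924). Both differences were small, and all knockdown values were below all scrambled values of the same fraction. The gene model 5830462I19Rik shares 785 of the 4227 exon bases of Scap on the opposite strand.

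Insig1, itself a well-known SREBP target, had 140 and 117 TPM in knockdown long-tail libraries, against 120 and 126 TPM in scrambled long-tail libraries (0.06). Its level in total RNA was 162 and 131 TPM in knockdown libraries, against 144 and 114 TPM in scrambled libraries (0.18). Insig1 overlapped in both fractions. Insig2, which is less dependent on SREBP, had 21 and 25 TPM in knockdown long-tail libraries, against 20 and 21 TPM in scrambled long-tail libraries (0.15). In total RNA Insig2 had 30 and 25 TPM in knockdown libraries, against 25 and 23 TPM in scrambled libraries (0.18), where values touched. The median of the 5 regulators in total RNA was 0.20 without scrambled total library 1 and -0.24 without scrambled total library 2, so its sign changed with the library left out.

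The 2 other SREBP targets went opposite ways. Stard4, a carrier that moves sterol between membranes, had 20 and 9 TPM in knockdown long-tail libraries, against 14 and 11 TPM in scrambled long-tail libraries (0.11). In total RNA Stard4 had 24 and 26 TPM in knockdown libraries, against 16 and 15 TPM in scrambled libraries (0.66 ± 0.35 SE, limma adjusted p = 0.924). It was separated in total RNA and overlapped in long-tail RNA, where knockdown library 2 was the lowest of the 4.

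Lpin1, a phosphatidate phosphatase that makes diacylglycerol, was lower in knockdown. It had 15 and 12 TPM in knockdown long-tail libraries, against 19 and 24 TPM in scrambled long-tail libraries (-0.63 ± 0.19 SE, limma adjusted p = 0.503, unadjusted p = 0.0169). Its level in total RNA was 21 and 24 TPM in knockdown libraries, against 25 and 30 TPM in scrambled libraries (-0.28). No knockdown value reached a scrambled value of the same fraction.

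The fatty acid enzymes had the highest summed level of the 3 roles, carried by Scd2 and Fads2, and had no common direction. In long-tail RNA 3 of 8 had a positive difference and in total RNA 5 of 8. Scd2, the main stearoyl-CoA desaturase of brain, had 1206 and 846 TPM in knockdown long-tail libraries, against 1128 and 1327 TPM in scrambled long-tail libraries (-0.28). In total RNA Scd2 had 1653 and 1606 TPM in knockdown libraries, against 1901 and 1820 TPM in scrambled libraries (-0.19), without overlap. It was lower in knockdown in total RNA, by less than its standard error of 0.21.

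Scd1, a close relative of Scd2 whose reads may be hard to tell from it, had 249 and 136 TPM in knockdown long-tail libraries, against 250 and 240 TPM in scrambled long-tail libraries (-0.41). In total RNA Scd1 had 342 and 262 TPM in knockdown libraries, against 395 and 304 TPM in scrambled libraries (-0.21). Scd1 overlapped in both fractions, and its lowest value was again that of knockdown long-tail library 2.

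Fads2, the delta-6 desaturase of polyunsaturated fatty acids, was the 1 fatty acid enzyme that was higher without overlap in long-tail RNA. It had 620 and 652 TPM in knockdown long-tail libraries, against 502 and 511 TPM in scrambled long-tail libraries (0.33, limma adjusted p = 0.608). In total RNA its 799 and 650 TPM in knockdown libraries overlapped the 730 and 621 TPM of scrambled libraries (0.10). Fads1, the delta-5 desaturase whose gene lies near it on chromosome 19, leaned the other way with 230 and 217 TPM in knockdown long-tail libraries, against 236 and 256 TPM in scrambled long-tail libraries (-0.14, without overlap). In total RNA Fads1 had 312 and 259 TPM in knockdown libraries, against 343 and 296 TPM in scrambled libraries (-0.16), with overlap.

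The enzymes that build saturated fatty acids overlapped between knockdown and scrambled libraries in both fractions. Acly, which supplies cytosolic acetyl-CoA, had 84 and 70 TPM in knockdown long-tail libraries, against 74 and 79 TPM in scrambled long-tail libraries. Fasn, the fatty acid synthase, had 152 and 71 TPM in knockdown long-tail libraries, against 132 and 103 TPM in scrambled long-tail libraries. Acaca, the acetyl-CoA carboxylase of the committed step, had 32 and 12 TPM in knockdown long-tail libraries, against 27 and 23 TPM in scrambled long-tail libraries. Knockdown library 2 was the lowest of the 4 for each of these genes, and knockdown library 1 the highest. Elovl6, which elongates palmitate, had 49 and 23 TPM in knockdown long-tail libraries, against 36 and 28 TPM in scrambled long-tail libraries.

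Across the 8 fatty acid enzymes 7 were below both scrambled libraries in knockdown long-tail library 2, against 37.1% of all tested genes, and 1 in knockdown long-tail library 1, against 38.4%. Without knockdown long-tail library 2 their median was 0.21, and without knockdown long-tail library 1 it was -0.49. Library 2 is the one that stood apart on the first principal component.

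In total RNA the same enzymes were nearer to each other. Acly had 136 and 111 TPM in knockdown total libraries, against 118 and 107 TPM in scrambled total libraries (0.13). Fasn had 209 and 164 TPM in knockdown total libraries, against 200 and 159 TPM in scrambled total libraries (0.05). Acaca (0.03) and Elovl6 (0.37) were also higher in knockdown on average and overlapped. Without knockdown total library 1 the median of the 8 was -0.10.

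Whether knockdown differed between the fractions was tested by the interaction, the knockdown difference in long-tail RNA minus that in total RNA. No member and no gene had an adjusted p under 0.05, and all members had an adjusted p of 1 in limma. At an unadjusted p under 0.05 there were 0 members, against 0.395% of tested genes as higher and 0.482% as lower. The members with the smallest p were Lpin1 (-0.36 ± 0.27 SE), Hmgcs1 (-0.21 ± 0.18 SE), Stard4 (-0.54 ± 0.50 SE) and Fads2 (0.23 ± 0.22 SE). Among the cholesterol steps 9 of 18 were positive, against 42.8% of all tested genes, and their median was -0.03. So the greater number of separated steps in long-tail RNA was not matched by a measured difference in the size of the knockdown effect between fractions.

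Long-tail RNA held a smaller share of the fatty acid enzymes than total RNA did. In knockdown neurons all 8 were lower in long-tail RNA (median -0.69), and in scrambled neurons all 8 were lower as well (median -0.58). The cholesterol steps lay less far below, with medians of -0.17 in knockdown neurons and -0.20 in scrambled neurons, and the regulators had medians of -0.26 and -0.36. Among the cholesterol steps 11 of 18 were lower in knockdown neurons and 17 of 18 in scrambled neurons. All 5 regulators were lower in both kinds of neuron. Of all tested genes 68.7% were lower in knockdown neurons and 74.3% in scrambled neurons. All tested genes had a median of -0.22 in each. Long-tail libraries were below total libraries without overlap for 19 of 33 members in knockdown neurons, against 40% of all tested genes, and for 20 of 33 in scrambled neurons, against 39.6%. Pmvk was the 1 member above without overlap, in scrambled neurons (4.69% of all tested genes), and 0 members were above without overlap in knockdown neurons (4.04%).

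Acly had the smallest p of the members in both kinds of neuron, with 84 and 70 TPM in knockdown long-tail libraries, against 136 and 111 TPM in knockdown total libraries. The difference was -0.67 ± 0.15 SE (limma adjusted p = 0.14). In scrambled neurons Acly had 74 and 79 TPM in long-tail libraries, against 118 and 107 TPM in total libraries (-0.55 ± 0.15 SE, limma adjusted p = 0.377). The fractions did not overlap in either. At an unadjusted p under 0.05, 8 of 33 members were lower in long-tail RNA of knockdown neurons, near the 25.1% of all tested genes. In scrambled neurons 6 of 33 were lower, against 12.9%. None was higher in either kind of neuron, against 0.921% and 0.263%.

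In knockdown neurons these 8 were Acly, Hmgcs1 (-0.51), Lpin1 (-0.70), Scd2 (-0.69), Lss (-0.74), Sc5d (-0.45), Scap (-0.35) and Hsd17b7 (-0.62). In scrambled neurons the 6 were Acly, Scap (-0.40), Scd2 (-0.60), Hsd17b7 (-0.62), Fads2 (-0.41) and Fads1 (-0.37). Sc5d had 94 and 80 TPM in knockdown long-tail libraries, against 129 and 110 TPM in knockdown total libraries. Hsd17b7 had 17 and 18 TPM in scrambled long-tail libraries, against 30 and 25 TPM in scrambled total libraries. Long-tail values were below total values without overlap for both genes. The largest difference of the 33 genes was that of Acaca, at -1.03 in knockdown neurons and -0.68 in scrambled neurons, but in knockdown neurons its long-tail values were spread widely. Fasn differed by -0.83 and -0.61, with wide spread in knockdown long-tail libraries too.

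Transcript length ran along with these differences. The fatty acid enzymes have long mRNAs, with a median of 5143.5 bases and up to 10050 bases in Fasn, against 2786.5 bases for the cholesterol steps, 4227 for the regulators and 3178 for all tested genes with a length. Over all genes the median difference between long-tail and total RNA in knockdown neurons was 0.16 in the shortest of 4 equal length classes, and it was -0.11, -0.33 and -0.68 in the next 3. In scrambled neurons the class medians were 0.06, -0.16, -0.31 and -0.46. The 2 knockdown long-tail libraries were unlike in this. Relative to each gene's mean over all libraries, the longest class had a median of -0.18 in library 1 and -0.68 in library 2. Measured against the median of its own length class, each of the 8 fatty acid enzymes was lower in long-tail RNA. Their median was -0.11 in knockdown neurons and -0.15 in scrambled neurons. Scd1 (-0.02), Scd2 (-0.01) and Fads1 (-0.01) lay almost at the class median in knockdown neurons. The longest class ran from 4718 to 123179 bases, so genes within a class were not matched in length. The part of length in these differences was not tested. By the same measure 7 of 18 cholesterol steps were above their class in knockdown neurons and 8 of 18 in scrambled neurons.

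**Figure D4:**
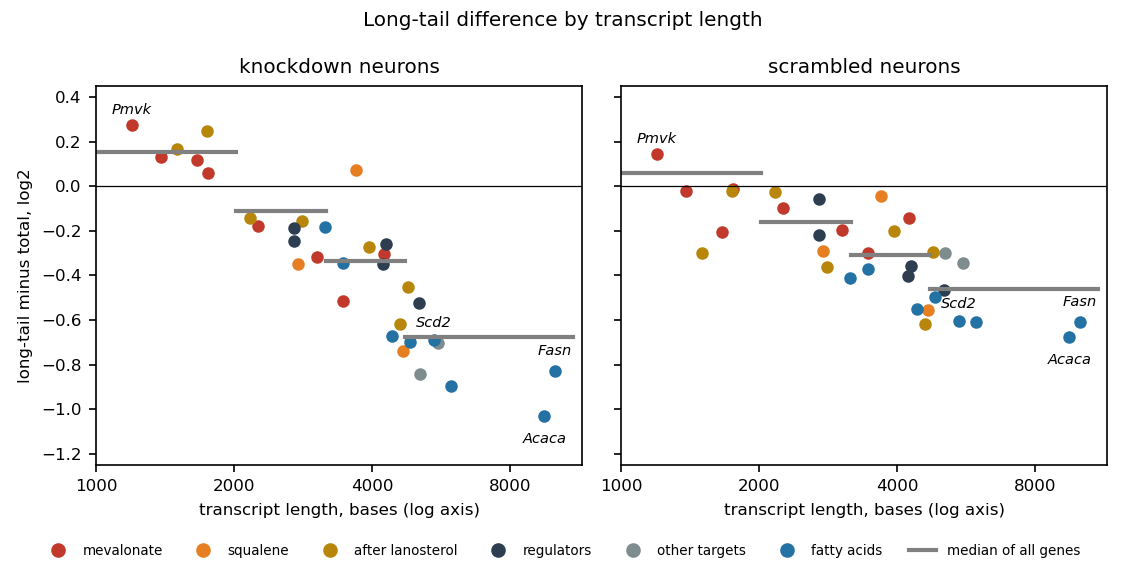
Long-tail minus total difference (log2 scale) of each of the 33 genes against the length of its longest annotated transcript (log axis), in knockdown neurons (left) and scrambled neurons (right); grey lines are medians of all tested genes in 4 equal length classes, drawn within the axis range. Pmvk, of 1194 bases, lies at 0.27 and 0.14, and Acaca, of 9513 bases, at -1.03 and -0.68.

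The knockdown comparison was also set against length. In long-tail RNA the median knockdown difference of all genes was 0.01 in the shortest class and -0.30 in the longest. The value of the longest class rested largely on knockdown long-tail library 2. Relative to each gene's mean over all libraries, that class had medians of -0.18 and -0.68 in knockdown long-tail libraries 1 and 2. In scrambled long-tail libraries 1 and 2 they were -0.20 and -0.05. Measured against the median of their own class, 16 of 18 cholesterol steps were above it in long-tail RNA (median 0.34) and 17 of 18 in total RNA (median 0.37). The fatty acid enzymes were above it for 5 of 8 in each fraction, with medians of 0.08 and 0.13. The regulators were above it for 4 of 5 in long-tail RNA and 3 of 5 in total RNA, with medians of 0.09 and 0.06. Measured against the median of all genes instead, the medians of the cholesterol steps were 0.43 in long-tail RNA and 0.37 in total RNA.

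Summed markers of oligodendrocytes differed without overlap between knockdown and scrambled libraries in both fractions. Sums of the other cell types did not separate in both. Counts of lower markers stand beside 61.2% of all tested genes lower in long-tail RNA and 60.2% in total RNA. Myelin and oligodendrocyte markers summed to 370 and 460 TPM in knockdown long-tail libraries, against 775 and 1065 TPM in scrambled long-tail libraries. In total RNA they summed to 449 and 421 TPM in knockdown libraries, against 927 and 1067 TPM in scrambled libraries, and all 10 of 10 had a negative difference in each fraction (medians -0.98 and -0.97). Astrocyte markers summed to 5678 and 4295 TPM in knockdown long-tail libraries, against 5693 and 4919 TPM in scrambled long-tail libraries, with 7 of 10 lower. They summed to 7227 and 4806 TPM in knockdown total libraries, against 7521 and 5695 TPM in scrambled total libraries, with 9 of 10 lower. The astrocyte sums differed more between library 1 and library 2 of a group than between knockdown and scrambled libraries of the same number. Markers of oligodendrocyte precursors were lower for 6 of 6 in each fraction, but their sums overlapped. These were 781 and 954 TPM in knockdown long-tail libraries, against 950 and 1027 TPM in scrambled long-tail libraries. In total RNA they were 912 and 897 TPM in knockdown libraries, against 1242 and 884 TPM in scrambled libraries. Neuronal markers summed to 5743 and 5552 TPM in knockdown long-tail libraries, against 5119 and 5155 TPM in scrambled long-tail libraries, with 7 of 10 higher and 3 lower. In total RNA the neuronal sums overlapped, with 5 of 10 higher and 5 lower. The part of these cells in the differences of the lipid genes was not tested.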

How the data were processed

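Poly(A) RNA was sequenced in 8 libraries made with the Nextflex qRNA-Seq Kit v2, 2 for each of 4 groups named from the sample titles. The submitters' processing notes name the mm10 build and, without versions or settings, RSEM, TopHat2, CASAVA, DESeq2 and DESeq. The authors deposited TPM per gene, rounded to whole numbers, which is treated as a score because rounding leaves steps of 1 TPM. The authors' 2 deposited tables give, per the file headers, a mean normalized count signal, a log2 fold change with its score statistic, and p-values, and hold genes below an adjusted p of 0.05 only. The deposited log2 values ran scrambled over knockdown, judged by TPM for all 104 and all 97 listed genes, and are given here turned, so that positive is higher in knockdown.

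Genes averaging 1 TPM or more (13681) were analysed on the log2(TPM + 1) scale. One limma model (version 3.58.1, R 4.3.3) with 4 group means, empirical Bayes and a mean-variance trend covered all libraries, with 5 two-sided contrasts and Benjamini-Hochberg adjustment at 0.05. The model was tested on simulated data in which libraries varied independently. That test does not cover an effect of library number such as these libraries showed. No chance test over gene lists was run, and lists are given by counts and medians beside those of all tested genes. Gene positions are from GENCODE on mm10, and lengths are of the longest transcript there, with a length for all 33 members and 13091 tested genes. Depth is unknown, so no counting intervals are given. Alternatives were the pseudocount, filters on low values, quantile normalization, leaving out Rn45s, a replicate block, leaving out each library, and, added after seeing the data, single knockdown libraries, same-numbered libraries, length classes and combined or crossed blocks.

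Members and lists were chosen with earlier results of these data known. All 33 members are named, with values per library for regulators, for members in the authors' tables and for those with the smallest p in each contrast. Related genes are named where they are in the authors' tables or among the 3 smallest p of a contrast. Some genes that this rule takes are not reported here.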

Additional observations from a re-analysis of the deposited data

How the results depend on the processing

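With 2 libraries per group and rounded TPM of unknown depth, the medians below carry no test, and leaving out a library leaves a lone one that is assumed to vary like the other groups. No member was called in any contrast with a pseudocount of 0.5, without the filter, or with a mean of at least 5 or 20 TPM. None was called after quantile normalization, without Rn45s, or with the replicate block alone. Every group holds the same library numbers, so the block can change p-values but no difference. The medians of the cholesterol steps, 0.32 in long-tail RNA and 0.30 in total RNA, were thus bound to stay under the block. The labels do not say that library numbers pair samples, and deviations of same-numbered libraries correlated at 0.22 to 0.60 in 5 of 6 pairs of groups (0.42 between knockdown and scrambled in long-tail RNA and 0.57 in total RNA) and at -0.11 between knockdown long-tail and knockdown total. Crossing the numbers of knockdown long-tail libraries, chosen after seeing the data, gave 0 called members. The replicate block with a filter at 20 TPM, also chosen after seeing the data, called 3 members in long-tail RNA (Mvk, Mvd and Tm7sf2, higher, with 4.36% of genes called), 1 in total RNA (Mvd, higher, 1.73%), and 9 as lower in long-tail than in total RNA of knockdown neurons (21.3%).

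Leaving out each library gave ranges for the medians in long-tail RNA of 0.22 to 0.36 for cholesterol steps (lowest without scrambled long-tail library 2), -0.17 to 0.06 for regulators and -0.49 to 0.21 for fatty acid enzymes. In total RNA they were -0.02 to 0.51, -0.24 to 0.20 and -0.10 to 0.19. The number of members called ranged from 0 to 7 for long-tail against total RNA in knockdown neurons and stayed at 0 in the other contrasts. The 7 (Lss, Hsd17b7, Stard4, Acly, Acaca, Fasn and Scd2, lower, with 15.3% of genes called) came without knockdown long-tail library 1, which leaves the library that stood apart. Relative to the median of the gene's length class the regulators' median in long-tail RNA was 0.085 in place of -0.06. The cause of each of these shifts was not tested.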

Other observations

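Other genes of the pathway were read from lists made in the same way, as counts beside 32% (long-tail RNA) and 32.6% (total RNA) of all tested genes above 0, and 61.2% and 60.2% below 0. Further genes of sterol synthesis and uptake were higher in knockdown for 6 of 8 tested in each fraction, with medians of 0.10 in long-tail RNA and 0.09 in total RNA. Genes that control SREBP processing or the turnover of the sterol enzymes were lower for 11 of 12 in long-tail RNA and 9 of 12 in total RNA, with medians of -0.15 and -0.12. Genes of sterol export, storage and the LXR receptors were lower for 9 of 10 in long-tail RNA and 10 of 10 in total RNA, with medians of -0.13 and -0.24. Sterol transport genes had 3 higher and 6 lower of 10 in long-tail RNA, and 4 higher and 6 lower in total RNA. Further fatty acid genes were lower for 13 of 21 in long-tail RNA and 12 of 21 in total RNA, near the shares of all genes. No gene of these lists passed the adjusted threshold in limma.

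Rnf145, a ubiquitin ligase of sterol metabolism that LXR induces, had 51 and 43 TPM in knockdown long-tail libraries, against 72 and 81 TPM in scrambled long-tail libraries (-0.69 ± 0.16 SE, limma adjusted p = 0.405). In total RNA it had 64 and 53 TPM in knockdown libraries, against 102 and 88 TPM in scrambled libraries (-0.69 ± 0.16 SE, limma adjusted p = 0.457). All its knockdown values were below all scrambled values of the same fraction. Elovl7, a fatty acid elongase, was low throughout, with 4 and 3 TPM in knockdown long-tail libraries, against 6 and 5 TPM in scrambled long-tail libraries (-0.54 ± 0.18 SE, limma adjusted p = 0.538).

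The interaction was smallest in p for Nr1h3, which encodes LXR alpha, at 2 and 3 TPM in knockdown long-tail libraries, 2 and 2 in scrambled long-tail libraries, 2 and 2 in knockdown total libraries and 3 and 3 in scrambled total libraries (0.62 ± 0.20 SE, limma adjusted p = 1), a change of 1 rounding step. Acsl4 and Acacb followed it at -0.54 and -0.79, also with an adjusted p of 1 in limma, and Acacb, at 0 to 2 TPM in every library, differed by single rounding steps too. Between fractions, Osbp, an oxysterol-binding sterol carrier, had the smallest p of the related genes in both kinds of neuron, at -0.68 in knockdown neurons and -0.55 in scrambled neurons. Acsl4 (-0.88) and Fbxw7 (-0.59) followed in knockdown neurons, and Mbtps1 (-0.46), the first protease that cuts SREBPs, was among the smallest p in scrambled neurons. Long-tail libraries were below total libraries without overlap for each of these genes in the neurons named.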
